A study of Rattus norvegicus with 12 samples.

Results

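The receptors described here bind neuropeptides that act on stress and anxiety circuits of the central nucleus of the amygdala (CeA). They were listed by gene name, and the list was drawn up with earlier results of these data known: the corticotropin releasing factor (CRF) receptors *Crhr1* and *Crhr2*, the neuropeptide Y receptors *Npy1r*, *Npy2r* and *Npy5r*, the somatostatin receptors *Sstr1* and *Sstr2*, the oxytocin receptor *Oxtr*, the vasopressin receptor *Avpr1a* and the substance P receptor *Tacr1*. All 10 are among the 37209 genes of the count table, and 9 had enough counts to be tested. The exception was *Sstr2*, which had 0 counts in every rat. RNA came from adult male wild type Sprague Dawley rats aged 14 to 16 weeks. The CIE group (n = 6) had gone through weeks of daily ethanol vapor inhalation, known as chronic intermittent ethanol exposure, and tissue was taken at the end of the final vapor period, so the values describe intoxication and not withdrawal. The Control group (n = 6) had breathed air only. The tissue was a punch of the CeA from a randomly chosen hemisphere, 1 library was made from each rat, and the rats were group housed in cages that the labels do not identify. CIE rats are numbered 1 to 6 and Control rats 7 to 12 as in their labels, and the numbers do not pair rats. Sample titles of both groups end in CIE, so the groups were taken from the treatment labels.

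All of these receptors are G protein-coupled. The CRF receptors mainly couple to Gs and raise cyclic AMP, the neuropeptide Y and somatostatin receptors couple to Gi/o and lower it, and the oxytocin, vasopressin V1a and substance P receptors act mainly through Gq/11 and calcium. In the amygdala, CRF acting on *Crhr1* and substance P acting on *Tacr1* are known to promote stress and anxiety responses, while neuropeptide Y acting on *Npy1r* is known to oppose them. *Npy2r* is known as a presynaptic receptor that limits transmitter release.

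Genes that respond to cyclic AMP are known to carry the cAMP response element, TGACGTCA, or its core TGACG, which the factor CREB binds, so the receptors' promoters were searched for these letters. In RefSeq promoters of the GRCr8 rat build, taken as 250 bases before and 50 after each annotated start, all 10 receptors were matched by symbol. The core was found on either strand in 7 of them, against 21.2% of 33469 promoters. Receptors were counted once each, though *Crhr1* has 2 promoters, while the background counts every promoter. This background was not matched for GC content, and the core itself holds a CG. GC content of the 7 ran from 49.0% (*Npy1r*) to 68.7% (*Sstr2*), against a median of 51.7% over all promoters. Of the 7, only *Npy1r* lay below that median. The part of GC content in the count of 7 was not tested. The whole element occurred in *Sstr2* only among the 10, against 1.83% of promoters, and each whole element also counts as a core. The windows below show the core of each of the 7 in capitals with 10 bases on either side, written 5′ to 3′ on the strand of the gene, so that CGTCA is a core read on the opposite strand.
*Crhr2*: gaccgtagatCGTCAgccctgccac
*Tacr1*: cccttcccagTGACGtctctgcagc
*Oxtr*: ggatttttacCGTCAccaccgagaa
*Sstr1*: cgcaaaagaaCGTCAgagcgccgcc
*Avpr1a*: ctacacctgtTGACGcgctacctgg
*Sstr2*: caagctgccgTGACGtcacgggtgg
*Npy1r*: cgtggggtgcCGTCAcatgatcctg
The cores began between 15 bases (*Sstr1*) and 240 bases (*Avpr1a*) before the annotated start. These matches describe letters and say nothing about binding of a factor, which was not measured.

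*Crhr2* and *Npy2r* are shown over the 250 bases before their starts because their transcripts varied together across rats. The *Crhr2* stretch lies at chr4:85581464-85581713 and the *Npy2r* stretch at chr2:170203101-170203350, both on the minus strand of GRCr8, and capitals mark the TGACG core in the former and an AP-1 site, TGANTCA, in the latter.
*Crhr2*: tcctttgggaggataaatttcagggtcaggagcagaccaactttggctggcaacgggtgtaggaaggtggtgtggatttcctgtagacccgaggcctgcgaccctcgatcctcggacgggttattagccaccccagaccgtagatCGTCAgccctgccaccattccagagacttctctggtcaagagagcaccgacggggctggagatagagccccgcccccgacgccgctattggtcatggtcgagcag
*Npy2r*: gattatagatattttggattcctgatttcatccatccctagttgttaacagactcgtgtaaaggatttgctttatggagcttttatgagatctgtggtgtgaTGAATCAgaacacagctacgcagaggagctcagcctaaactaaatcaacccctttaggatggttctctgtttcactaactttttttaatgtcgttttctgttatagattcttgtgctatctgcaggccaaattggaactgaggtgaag
No motif searched was in both promoters. *Crhr2* held the core and a GC box (GGGCGG, in 33.1% of promoters), and *Npy2r* held an E-box (CANNTG, in 72.1%) and the only AP-1 site among the 10 receptors (in 7.33% of promoters). The remaining motif, the TATA box TATAAA, was in *Tacr1* and *Avpr1a* and in 14.2% of promoters. Over the 300 bases, GC content was 60.3% for *Crhr2* and 40.0% for *Npy2r*, against a median of 51.7%.

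Total counts lay between 39082548 and 95647601 per rat. A total of 20944 genes passed the filter on low counts and were compared. Striatal projection neuron markers stood apart in CIE rat 2 and Control rat 10, where their summed level was 6030 and 6897 CPM, counts scaled to library size after TMM normalization, against 659 to 3271 CPM in the other rats. All 15 CeA neuron markers were detected, with a summed level of 948 to 3038 CPM in CIE rats and 986 to 3541 CPM in Control rats. Markers of myelinating oligodendrocytes were lower in CIE rats (9 of 10 at a nominal *p* value below 0.05, against 4.31% of all genes; 5593 to 13657 CPM against 8633 to 16170 CPM), as were 5 of 10 endothelial markers (272 to 384 CPM against 307 to 385 CPM). All 13 tested cortical glutamatergic neuron markers had positive log2 fold changes, and 4 passed as higher, against 4% of all genes. Their summed level was 648 to 1438 CPM against 624 to 1289 CPM, with *Neurod1* listed at 0. These markers come from the same punches and are not independent. In an exact permutation test of the marker score per rat, *p* was 0.145 for cortical markers and 0.0303 for both oligodendrocyte and endothelial markers. The cortical score was 1.20, 1.01 and 0.83 in CIE rats 1, 2 and 4. It lay between -0.48 and -0.24 in the other CIE rats and between -0.82 and 0.44 in Control rats. The part of these marker differences in the receptor values was not tested, except for the fit with cortical and striatal scores given below. In tissue RNA, fewer cells of a type and less RNA per cell cannot be told apart.

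None of the 9 tested receptors passed the test for a difference between the CIE and Control groups. In the quasi-likelihood F test of edgeR, 0 of 9 passed a nominal *p* value of 0.05, whereas 8.31% of all genes tested did, and 0 of 9 passed 5% FDR, against 0.363% of all genes. DESeq2 and limma-voom also called 0 of 9 at either threshold. The CIE and Control values overlapped for all 9, and they did not overlap for 0.893% of all genes. The log2 fold changes ranged from -0.19 (*Tacr1*) to 0.36 (*Crhr2*), 6 positive and 3 negative, with a median of 0.07 against 0.00 over all genes. Because a *p* value above the threshold does not show equal levels, each receptor is given with the 95% interval of its fold change.

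**Figure D1:**
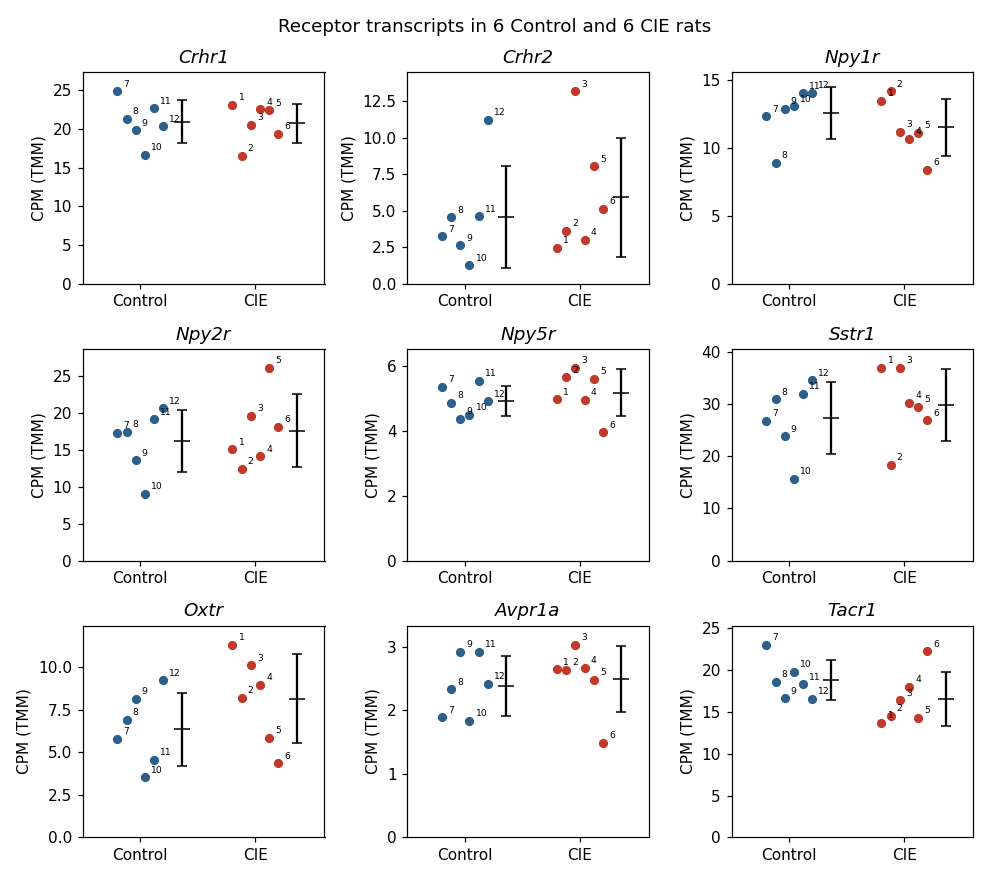
Expression of the 9 tested receptors in CPM with TMM normalization (vertical axes, starting at 0), with 1 point per rat labelled by its number, Control rats on the left and CIE rats on the right, and bars for the mean and SD (n = 6 per group). The groups overlap in every panel, and *Crhr2* spreads from 1.26 to 13.2 CPM.

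*Crhr1*, the main receptor for CRF, was among the steadiest. It lay between 16.5 and 23.1 CPM in CIE rats (median 21.4) and between 16.6 and 24.9 CPM in Control rats (median 20.8). The groups covered almost the same range, and only CIE rat 2 fell below every Control rat. The means were 20.7 ± 2.50 CPM and 20.9 ± 2.79 CPM (SD, n = 6 each), a log2 fold change of -0.01 (SE 0.10, edgeR FDR = 0.983). The 95% interval of the fold change ran from 0.849 to 1.15, which makes *Crhr1* one of the receptors for which the data set the closest limits.

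*Crhr2*, which binds urocortins more readily than CRF, was the most variable. It lay between 2.46 and 13.2 CPM in CIE rats (median 4.38) and between 1.26 and 11.2 CPM in Control rats (median 3.91), a 10.4-fold span over the 12 rats. CIE rat 3 and Control rat 12 were the highest rats, 1 in each group, CIE rat 5 followed them, and Control rat 10 was the lowest. The coefficient of variation over the 12 rats was 70.3%, against 11.7% (*Npy5r*) to 34.0% (*Oxtr*) for the other 8, and counts were 75 to 854 per rat. Group means were 5.91 ± 4.10 and 4.60 ± 3.49 CPM, and the log2 fold change was 0.36 (SE 0.49, edgeR FDR = 0.898). The value moved with the 2 highest rats: it was -0.05 without CIE rat 3 and 0.86 without Control rat 12 (edgeR FDR = 0.683). It was 0.78 with scores of cortical and striatal markers in the fit and 9.70e-05 in limma-voom. The fold change had an interval of 0.620 to 2.66, the widest of the 9.

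For the neuropeptide Y receptors, the fold changes were small and of either sign. *Npy1r*, the Y1 receptor, ranged from 8.41 to 14.2 CPM in CIE rats (median 11.2) and from 8.90 to 14.1 CPM in Control rats (median 13.0). Control rat 8 lay well below the other Control rats, which held between 12.3 and 14.1 CPM. The means were 11.5 ± 2.09 and 12.6 ± 1.92 CPM with a log2 fold change of -0.12 (SE 0.14, edgeR FDR = 0.866), and the fold change had an interval of 0.751 to 1.12.

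*Npy2r* ranged from 12.4 to 26.0 CPM in CIE rats (median 16.6) and from 9.01 to 20.6 CPM in Control rats (median 17.3). CIE rat 5 was the highest rat and Control rat 10 the lowest, and 5 of 6 CIE rats lay inside the Control range. The means were 17.5 ± 4.93 and 16.2 ± 4.22 CPM with a log2 fold change of 0.12 (SE 0.20, edgeR FDR = 0.921), and the fold change had an interval of 0.802 to 1.47. When the scores of cortical and striatal markers entered the fit, the log2 fold change was 0.33 (edgeR FDR = 0.481), the single receptor past the nominal threshold in that fit. It was -0.03 without CIE rat 5 and -0.01 in limma-voom. *Npy5r*, the Y5 receptor known for its part in feeding, was steady, with 3.96 to 5.95 CPM in CIE rats and 4.38 to 5.56 CPM in Control rats, and a log2 fold change of 0.07 (SE 0.11, edgeR FDR = 0.913; interval of the fold change 0.888 to 1.25).

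*Sstr1*, a somatostatin receptor, ranged from 18.3 to 36.9 CPM in CIE rats (median 29.8) and from 15.7 to 34.5 CPM in Control rats (median 28.8). The lowest rat of each group was the rat with high striatal markers, CIE rat 2 and Control rat 10, as for *Crhr1* and *Npy2r*. The means were 29.7 ± 6.94 and 27.3 ± 6.83 CPM with a log2 fold change of 0.13 (SE 0.19, edgeR FDR = 0.910), and the fold change had an interval of 0.822 to 1.45. The log2 fold change was 0.01 without Control rat 10, 0.05 without CIE rat 1, 0.06 without CIE rat 3, 0.20 without Control rat 12 and 0.23 without CIE rat 2. *Sstr2*, another somatostatin receptor, was listed at 0 counts in all 12 rats, which would allow up to 0.0314 to 0.0768 CPM per rat from counting error alone. This 0 cannot be read as absence of the transcript. The table lists 643 named protein-coding genes at 0 in every rat, among them *Fth1*, *Kif1a* and *Ndufa10*, which brain cells use widely (chosen after their values were seen). In RefSeq, the span of *Sstr2* overlaps that of *Slc39a11*, which had 26842 counts over the 12 rats, and the other 9 receptors overlap no gene. Overlap was found for 45.4% of the 643 genes for 40.3% of named genes with counts, and for 44.0% of those with at least 1000 counts over the 12 rats. The part of overlap in the 0 was not tested.

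*Oxtr* ranged from 4.35 to 11.3 CPM in CIE rats (median 8.60) and from 3.54 to 9.24 CPM in Control rats (median 6.36). CIE rats 1 and 3 lay above every Control rat, and the other 4 lay inside the Control range. The means were 8.15 ± 2.62 and 6.37 ± 2.16 CPM with a log2 fold change of 0.35 (SE 0.26, edgeR FDR = 0.784), and the fold change had an interval of 0.873 to 1.86. *Avpr1a*, the vasopressin V1a receptor, was the receptor with the fewest counts of the 9, 109 to 224 per rat. It had 1.49 to 3.03 CPM in CIE rats and 1.84 to 2.92 CPM in Control rats, with a log2 fold change of 0.06 (SE 0.18, edgeR FDR = 0.956; interval of the fold change 0.795 to 1.37). It was 0.18 without CIE rat 6.

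*Tacr1*, the NK1 receptor for substance P, had the smallest *p* value of the 9 receptors. It ranged from 13.7 to 22.3 CPM in CIE rats (median 15.5) and from 16.6 to 23.0 CPM in Control rats (median 18.5). There were 4 CIE rats below every Control rat, while CIE rat 6 was near the top of the Control range. The means were 16.5 ± 3.24 and 18.8 ± 2.41 CPM with a log2 fold change of -0.19 (SE 0.12, edgeR FDR = 0.749), and the fold change had an interval of 0.732 to 1.05. Without CIE rat 6 it was -0.29 (edgeR FDR = 0.347), a nominal pass that rests on leaving out that rat. CIE rat 6 stood apart in its markers, with the lowest pan-neuronal score of the 12 rats (-1.02, against -0.33 to 0.60 in the others), the lowest summed CeA neuron markers (948 CPM) and the highest astrocyte score (1.08), and the part of this in its *Tacr1* and *Avpr1a* levels was not tested.

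**Figure D2:**
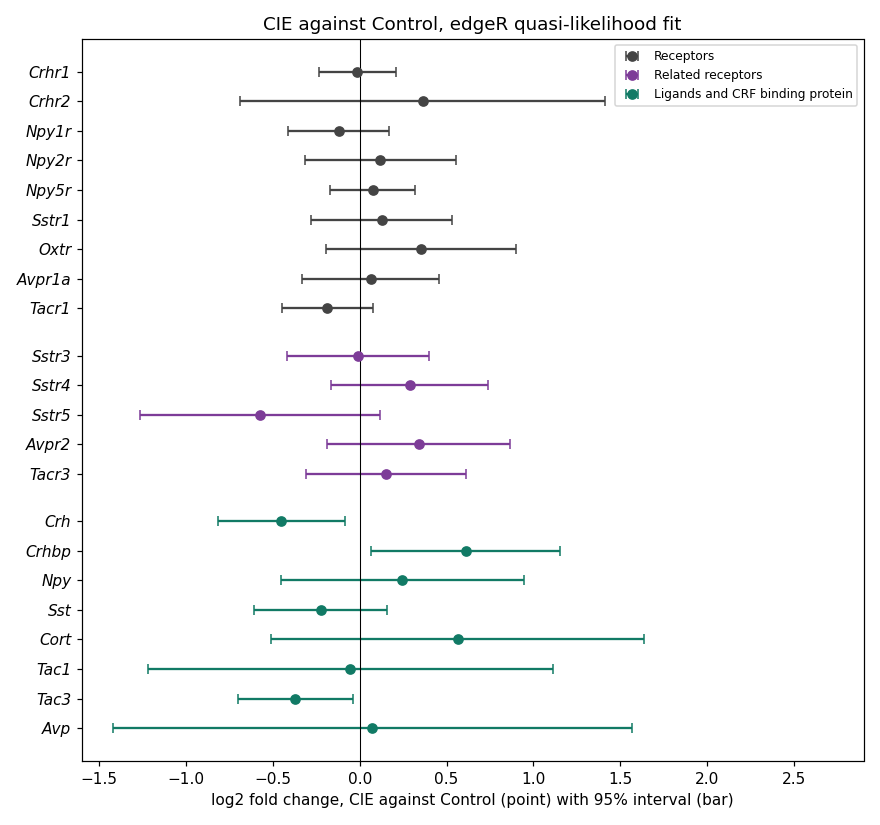
Log2 fold changes of CIE against Control (horizontal axis; points) with 95% intervals (bars) from the edgeR fit, for the 9 receptors, 5 related receptors, and 8 of the 10 tested ligand genes. *Oxt* and *Ucn3* are left out because their intervals run from -3.72 to 2.15 and from -2.98 to 1.33. All 14 receptor intervals include 0, and those of *Crh*, *Crhbp* and *Tac3* do not.

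The balance within 5 chosen pairs of receptors for the same or related ligands was compared as the log2 ratio of their counts in each rat, and *Npy2r* over *Npy5r* was not among them. The pair of *Sstr1* and *Sstr2* gave no ratio, and the other 4 did not pass a two-sided exact permutation test, whose smallest possible *p* value is 0.00216. *Crhr1* over *Crhr2* was 2.06 ± 0.947 in CIE rats and 2.49 ± 0.964 in Control rats (n = 6 each, exact *p* = 0.437). *Npy1r* over *Npy5r* was 1.14 ± 0.201 and 1.34 ± 0.268 (n = 6 each, exact *p* = 0.193), and without Control rat 8 the difference was -0.29 (exact *p* = 0.0368). That unadjusted value rests on leaving out Control rat 8. Leaving out any other rat took no ratio below 0.05. *Npy1r* over *Npy2r* differed by -0.25 (exact *p* = 0.433) and *Oxtr* over *Avpr1a* by 0.31 (exact *p* = 0.219). Adjusted over the 4 ratios, each *p* value was 0.437.

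Other genes of the same systems were read from lists, which were drawn up with earlier results for *Crh* and *Crhbp* in these rats known. Of 9 related receptors, 5 were tested and none passed, as for the 9 receptors above. *Tacr3*, the neurokinin B receptor, had a log2 fold change of 0.15 (SE 0.21, edgeR FDR = 0.902) and *Sstr3* -0.01 (SE 0.19, edgeR FDR = 0.994). *Npy4r*, *Avpr1b* and *Tacr2* had too few counts, at most 37 in a rat, and *Npy6r* is not among the genes listed. A single related receptor passed the nominal threshold without CIE rat 3 (*Avpr2*), without CIE rat 6 (*Sstr4*) and without Control rats 9 or 10 (*Sstr5*).

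Of 15 ligand genes, counting the CRF binding protein, 10 were tested, 1 passed higher in CIE rats (4% of all genes did) and 2 lower (4.31%), all at a nominal *p* value, and the median log2 fold change was -0.14. *Crh*, which encodes CRF, lay between 3.76 and 7.58 CPM in CIE rats and between 6.27 and 9.86 CPM in Control rats. Its log2 fold change was -0.45 (SE 0.17, edgeR FDR = 0.472), and it passed the nominal threshold in 20 of 20 alternative fits. *Crhbp*, which encodes the protein that binds and sequesters CRF, had a log2 fold change of 0.61 (SE 0.25, edgeR FDR = 0.540). It passed in 13 of 20 alternative fits, not without CIE rats 1, 2 or 4 or Control rats 7, 8 or 9, and with both marker scores in the fit the value was 0.16 (edgeR FDR = 0.899). *Tac3*, which encodes neurokinin B, was 35.0 ± 6.56 CPM in CIE rats and 45.3 ± 9.58 CPM in Control rats, a log2 fold change of -0.37 (SE 0.15, edgeR FDR = 0.542), and also passed in 13 of 20, not without CIE rats 2 or 6, Control rats 7, 8, 9 or 11, or with the marker scores. In a two-sided exact permutation test of mean CPM, *p* was 0.0216 for *Crh*, 0.104 for *Crhbp* and 0.0541 for *Tac3*. Of these genes only *Crh* was below 0.05 in that test. *Sst*, the ligand gene with the most counts, did not pass, with a log2 fold change of -0.22 (SE 0.18, edgeR FDR = 0.801).

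Of 9 tested G protein alpha subunits, 1 passed, at the nominal threshold only, where 8.31% of all genes passed. It was *Gnai3*, a Gi subunit, at 35.3 ± 1.38 against 39.2 ± 2.45 CPM (log2 fold change -0.15, SE 0.06, edgeR FDR = 0.462), and the median of the list was -0.02. It passed in 19 of 20 alternative fits, not without both CIE rat 2 and Control rat 10. *Gnas*, the Gs subunit, had a log2 fold change of -0.24 (SE 0.15, edgeR FDR = 0.732) and *Gnao1*, the Go subunit, 0.05 (SE 0.09, edgeR FDR = 0.928). None of 7 receptor kinases and arrestins passed, with *Arrb1*, which desensitizes receptors, at 0.07 and *Adrbk1*, a receptor kinase, at -0.05. None of 9 peptidases that cut these peptides passed, with *Ece2* at -0.18 and *Ece1* at 0.03, both endothelin converting enzymes.

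Relations between receptor levels were examined across the 12 rats. Pearson correlations of log2 CPM were computed for 36 receptor pairs and for 36 pairs of a receptor and a marker score, with Benjamini-Hochberg adjustment over the 72. *Crhr2* and *Npy2r* gave the single pair that passed, with r = 0.84 (permutation *p* = 0.00065, adjusted *p* = 0.0468) and Spearman's rho = 0.87 (permutation *p* = 0.00035, adjusted *p* = 0.0252). The correlation was 0.80 without rats 3 and 10, the farthest from the median *Crhr2* level, and 0.78 without rats 2 and 10, which had the high striatal markers. Within the CIE group r was 0.74 (exact *p* = 0.0944) and within the Control group 0.91 (exact *p* = 0.00278). Both receptors had the same sign of r with each of the neuronal marker scores, and none of these relations passed the adjustment. For *Crhr2* and *Npy2r*, r was -0.57 and -0.80 with the striatal score and -0.50 and -0.61 with the CeA neuron score. Values were -0.34 and -0.50 with the cortical score and 0.67 and 0.51 with the GABA interneuron score. The part of tissue makeup in the correlation of *Crhr2* with *Npy2r* was not tested.

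**Figure D3:**
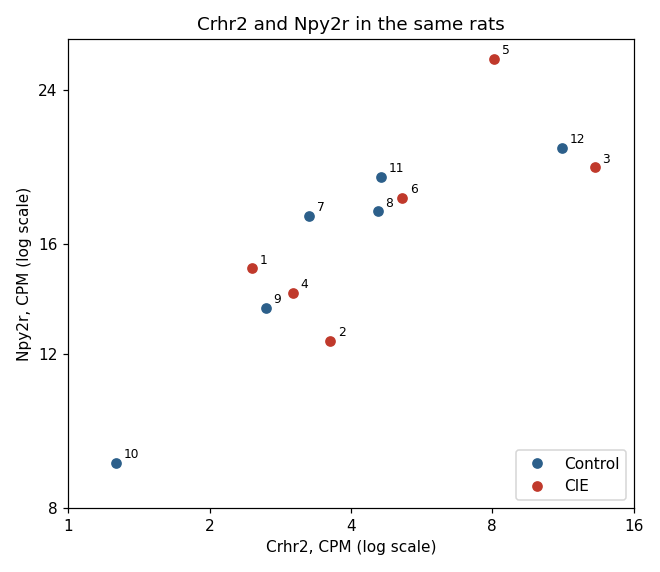
*Crhr2* (horizontal axis) against *Npy2r* (vertical axis) in CPM on log axes, with 1 point per rat labelled by its number and colored by group. Control rat 10 is lowest in both at 1.26 and 9.01 CPM, and rats 3, 5 and 12 are the highest.

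Against the striatal score, neither *Npy2r* nor *Sstr1* passed the adjustment, with r = -0.80 (permutation *p* = 0.00141, adjusted *p* = 0.0508) and r = -0.76 (permutation *p* = 0.00699, adjusted *p* = 0.103). For *Npy2r*, rho was -0.74 (permutation *p* = 0.00792) and r was -0.52 without rats 2 and 10. For *Sstr1*, rho was -0.43 (permutation *p* = 0.162) and r was -0.11 without those rats, so that this relation rests on them. The same holds for *Crhr1* and *Sstr1*, with r = 0.74 (permutation *p* = 0.00716, adjusted *p* = 0.103) and rho = 0.50 (permutation *p* = 0.0996), and r = 0.12 without rats 2 and 10. For *Crhr1* against the striatal score, r was -0.65 (permutation *p* = 0.0238, adjusted *p* = 0.155) and rho was -0.30 (permutation *p* = 0.342). Without rats 2 and 10 that r was 0.14. *Tacr1* ran opposite to *Avpr1a*, with r = -0.70 (permutation *p* = 0.00991, adjusted *p* = 0.119) and rho = -0.57 (permutation *p* = 0.0579), and r = -0.53 without rats 6 and 10.

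**Figure D4:**
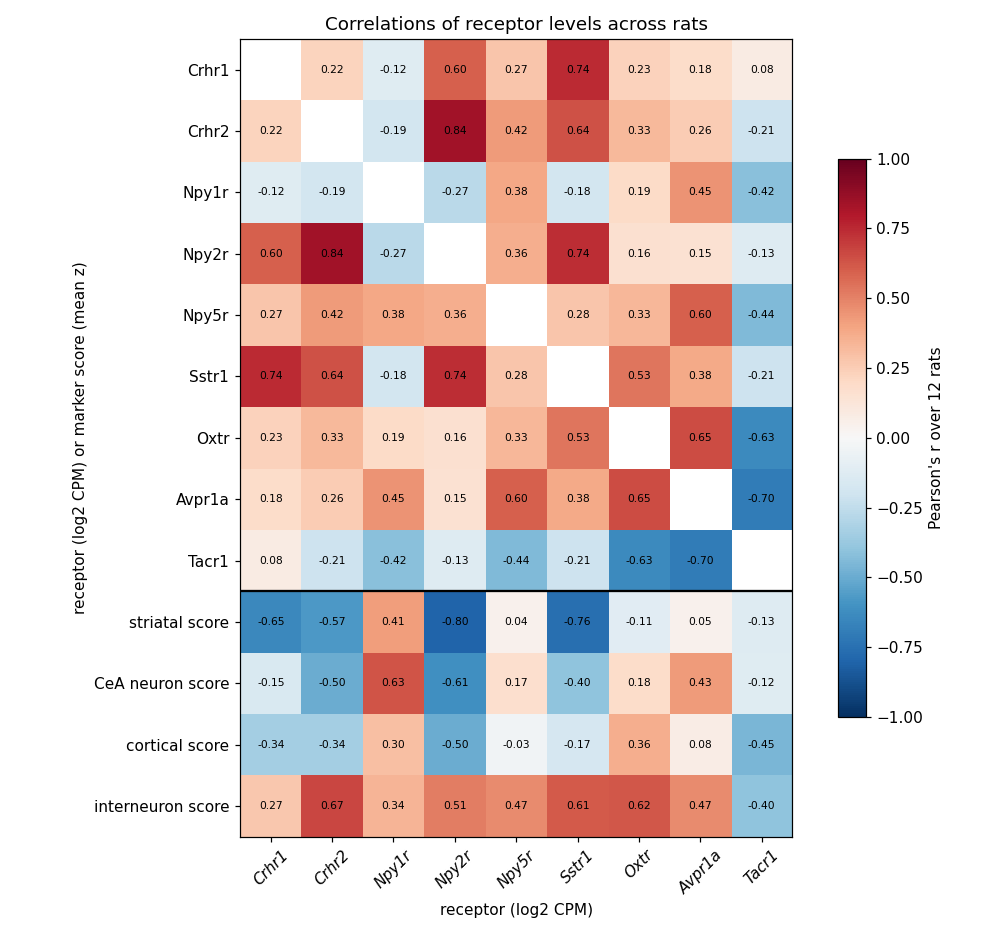
Pearson's r over 12 rats between receptors, and between receptors and 4 neuronal marker scores (rows below the line), from -1 (blue) to 1 (red) in log2 CPM. The highest value is 0.84 for *Crhr2* with *Npy2r* and the lowest is -0.80 for *Npy2r* with the striatal score.

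The genes most like each receptor across the 12 rats, with group means removed, differed from receptor to receptor. *Crhr2* was closest to *Brinp3* (r = 0.98), to *Htr2c*, a serotonin receptor (r = 0.97), and to *Hspa1a*, a heat shock protein (r = 0.96), and 29 genes lay above 0.9. *Npy2r* was closest to *Fstl5* (r = 0.98), *Gprasp2* (r = 0.97) and *Arl4c* (r = 0.97), and 113 genes lay above 0.9. For *Sstr1* they were *Faim*, *Lrfn5* and *Lrfn2* (r = 0.95, 0.94 and 0.93), and for *Crhr1* they included *Tnfrsf21* and *B4galnt4* (r = 0.92 and 0.91).

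For *Npy1r*, *Fam171b* and *Lrrc6* were among the closest (r = 0.92 and 0.90), and *Npy5r* was closest to *Npdc1*, *Sgta* and *Dnaja1* (r = 0.90, 0.89 and 0.88). *Oxtr* was closest to *RT1-Ba*, an MHC class II gene (r = 0.93), *Rap2a* (r = 0.88) and *Nabp1* (r = 0.86), and *Avpr1a* to *Eif1a*, *Chmp6* and *Slitrk1* (r = 0.92 each). *Tacr1* had no gene above 0.9 and was closest to *Ncf1* (r = 0.88), *B3galtl* (r = 0.85) and *Pfkfb4* (r = 0.85). These are the highest of 20944 genes in 12 rats and are given as a description. With group means kept, 0 of the 3 closest genes stayed for *Npy1r* and *Npy2r*. For *Crhr1*, *Crhr2*, *Npy5r* and *Sstr1*, 1 stayed, and for *Oxtr*, *Avpr1a* and *Tacr1*, 2 stayed. The genes above 0.9 were then 15 for *Crhr2* and 46 for *Npy2r*.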

How the data were processed

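Libraries of poly-A RNA were sequenced from CeA tissue of 6 CIE and 6 Control rats, with separate rats as replicates. The deposited values are raw counts per gene, which the authors obtained with HTSeq after BWA alignment to Rnor_6.0. Tool versions, the annotation, strand and overlap settings are not given in the sources used here; the authors tested with DESeq2 1.26. All 12 columns of counts were used.

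The analysis used edgeR 4.0.16 in R 4.3.3 (TMM, filterByExpr, quasi-likelihood F test, two-sided, no covariates), DESeq2 1.42.0 and limma 3.58.1, and in Python 3.11.15. Steps were tested on simulated data. FDR is Benjamini-Hochberg over the genes tested in each fit, which were 20944 in the main fit. Fits with rats left out tested 21064 to 21213 genes. DESeq2 gave *p* values for 29389 genes and applied its default filter before adjustment. SE and 95% intervals come from the edgeR fit. Correlations used log2 CPM with a prior count of 2 and 100000 permutations, and count ratios a pseudocount of 0.5. The floor for 0 counts is 3 counts and covers counting error only.

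The members and lists were chosen with earlier results of these data known. The genes named were the receptors, list genes at a nominal *p* value below 0.05, the 2 of each list with the highest CPM and the 3 most alike per receptor, of which 2 are not reported here. Gene names, overlaps and promoters are from RefSeq GRCr8. Alternatives were other normalizations, filters and tools, marker covariates, and leaving out each rat. Levels were not compared between receptors, because no transcript lengths were used here.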

Additional observations from a re-analysis of the deposited data

Results flagged for a closer look

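In 26 groups of 6 values (9 receptors and 4 ratios in both groups), 3 held a rat far from the rest by Dixon's test at the 95% level, which chance gives in about 5% of groups. That share is for normally distributed values. Receptors entered as CPM without a log scale, and ratios as log2 values. The share may therefore not hold for a skewed gene such as *Crhr2*, and log2 CPM was not tested. For *Crhr2*, Control rat 12 was at 11.2 CPM and the other Control rats between 1.26 and 4.63 CPM. For *Npy1r*, Control rat 8 was at 8.90 CPM and the others between 12.3 and 14.1 CPM. For *Avpr1a*, CIE rat 6 was at 1.49 CPM and the others between 2.48 and 3.03 CPM.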

How the results depend on the processing

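Of the 9 tested receptors, 0 passed 5% FDR in any of 20 alternative fits. At the nominal threshold, 1 passed (*Npy2r*) with scores of cortical and striatal markers in the fit, and between 0 and 1 passed when each rat was left out, the 1 being *Tacr1* without CIE rat 6. The log2 fold change kept its sign in 20 of 20 fits for *Npy1r*, *Npy5r*, *Sstr1*, *Oxtr* and *Tacr1*, in 19 for *Crhr2*, in 18 for *Npy2r* and *Avpr1a* and in 13 for *Crhr1*. Over all genes, 1740 passed the nominal threshold, 3596 with limma-voom with sample quality weights, and between 1347 (without Control rat 9) and 2811 (without CIE rat 3) without a rat. With library size only, 1060 were higher and 697 lower, against 837 and 903. At 5% FDR, 76 genes passed, 266 with DESeq2, 234 with limma-voom, 41 with the marker scores, 38 without CIE rat 2 and Control rat 10 (chosen after seeing the data), and between 34 (without Control rat 9) and 154 (without CIE rat 6) without a rat. The cause was not tested. The nominal count of ligand genes was 3, and 5 with limma-voom, and that of G protein alpha subunits was 1, and 3 with limma-voom. Keeping the group means left between 0 and 2 of the 3 genes most like a receptor. The order of receptor levels per length was not run. No paired analysis was possible because the labels give no number to both a CIE and a Control rat.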
